A study of Mus musculus with 2 samples.

Results

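The erythroid transcription factors examined here are 10 genes that regulate transcription in the red-cell lineage, namely Klf1, Gata1, Tal1, Gfi1b, Nfe2, Zfpm1, Lmo2, Ldb1, Bcl11a and Sox6. They were chosen by name, and every probe annotated with one of these symbols was used. Of the 10, 9 had a named probe, with 17 probes among the 45281 on the array, and all 9 were detected on at least 1 array, among 9953 detected genes in the series. No probe is named for Zfpm1 in the annotation used here, so no expression value is given for it.

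RNA came from the tibia of 22-week-old female mice on the C57BL/6 background, untreated, and was hybridised to Illumina mouse bead arrays. One array held pooled RNA of 3 mice labelled TERC+/+, and the other held pooled RNA of 3 mice labelled TERC-/-, which lack the RNA template of telomerase and are named G3 in the series title. The tibia holds bone, cartilage and marrow together, and the labels name no other allele and no agent in either pool. The probe of Terc itself was not above background on either array, with raw intensities of 112 in each pool, so it gives no check of the genotype. With 1 array per genotype there is no spread between samples and therefore no test. Every difference below describes these pools, and a size of 2-fold is used as a rule of description. Of 14 bone marker genes, 12 had a probe and 10 were detected. Of those 10, 9 were at least 2-fold lower in Terc-/- (median log2 difference -1.76), and the raw intensities of the 12 summed to 97074 in Terc+/+ and 19341 in Terc-/-. Bglap, the osteoblast protein osteocalcin, differed by -3.82, more than any of the factors.

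Red-cell formation is run by a small set of DNA-binding proteins that act together. Gata1 binds GATA motifs and Tal1 binds E-boxes, and both are held in one complex by the adaptor Lmo2 and the scaffold Ldb1, which can also join distant enhancers to promoters. Klf1 binds CACCC boxes in globin and many other red-cell genes, while Gfi1b, Bcl11a and Sox6 mostly repress. Outside the red-cell lineage, Gata1 also serves megakaryocytes, eosinophils and mast cells, Tal1 and Lmo2 serve stem cells and endothelium, Bcl11a serves B cells and plasmacytoid dendritic cells, Sox6 serves cartilage, and Nfe2 serves megakaryocytes.

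Because the factors are known to act on each other's genes, the promoter windows of those whose values differ most clearly, and of Ldb1 for contrast, are printed here. They are from RefSeq on build GRCm38.p6, each from 250 bases before to 50 bases after an annotated start, on the strand of the gene. In the first 4 windows capitals mark a GATA motif, searched on both strands as AGATAA and as the forms of it that begin with T or end in G. In the Gata1 window, which has none, capitals mark a CACCC-type motif, searched as CCNCNCCC on both strands, which also takes in GC boxes.
Klf1, chr8:84901732-84902031, plus strand: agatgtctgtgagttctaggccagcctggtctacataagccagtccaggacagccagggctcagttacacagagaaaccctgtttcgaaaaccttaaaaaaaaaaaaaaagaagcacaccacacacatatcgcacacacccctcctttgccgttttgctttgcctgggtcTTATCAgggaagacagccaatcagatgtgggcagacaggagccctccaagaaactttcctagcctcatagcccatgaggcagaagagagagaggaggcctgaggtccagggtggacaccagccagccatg
Gfi1b, chr2:28621933-28622232, minus strand: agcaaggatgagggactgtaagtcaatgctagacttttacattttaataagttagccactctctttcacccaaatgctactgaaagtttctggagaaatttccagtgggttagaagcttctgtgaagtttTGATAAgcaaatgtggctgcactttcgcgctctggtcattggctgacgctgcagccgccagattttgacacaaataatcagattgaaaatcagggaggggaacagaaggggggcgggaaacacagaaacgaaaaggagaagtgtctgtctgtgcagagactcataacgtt
Tal1, chr4:115056176-115056475, plus strand: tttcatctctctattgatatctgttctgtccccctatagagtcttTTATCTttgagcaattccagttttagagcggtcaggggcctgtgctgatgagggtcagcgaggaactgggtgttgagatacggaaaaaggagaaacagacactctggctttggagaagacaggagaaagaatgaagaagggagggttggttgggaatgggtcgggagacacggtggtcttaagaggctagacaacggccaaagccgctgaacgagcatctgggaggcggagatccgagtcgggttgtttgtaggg
Ldb1, chr19:46037021-46037320, minus strand: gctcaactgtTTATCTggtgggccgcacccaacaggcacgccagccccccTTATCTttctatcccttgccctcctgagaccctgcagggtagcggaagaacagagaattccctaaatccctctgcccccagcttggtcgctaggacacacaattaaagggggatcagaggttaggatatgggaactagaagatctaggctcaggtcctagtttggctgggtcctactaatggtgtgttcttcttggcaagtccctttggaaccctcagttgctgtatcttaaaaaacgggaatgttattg
Gata1, chrX:7967861-7968160, minus strand: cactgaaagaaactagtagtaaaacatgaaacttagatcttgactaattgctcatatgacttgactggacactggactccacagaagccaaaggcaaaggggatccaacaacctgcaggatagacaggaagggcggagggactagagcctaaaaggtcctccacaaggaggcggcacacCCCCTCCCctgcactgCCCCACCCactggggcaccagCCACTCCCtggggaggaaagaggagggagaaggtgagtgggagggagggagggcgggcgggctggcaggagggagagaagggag

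The Klf1 window held 1 GATA motif, which begins at position -80 from the start site, and 1 E-box (CANNTG) at position -59. Gfi1b held 1 GATA motif at -120, with an E-box close by at -113, and the Tal1 window shown, 1 of 2 listed for that gene, held 1 GATA motif at -205. The other Tal1 window held 0 GATA motifs and 0 E-boxes. The Ldb1 window shown, 1 of 3 listed for that gene, held 2 GATA motifs at -240 and -200, so the motif was also present in a gene that differed little between the arrays. The other Ldb1 windows held 0 GATA motifs. The Gata1 window held 3 CACCC-type motifs, at -71, -55 and -34. The table held 16 windows for 8 of the members, and 6 of the 16 held a GATA motif, 10 a CACCC-type motif, 12 an E-box and 0 the NF-E2 motif TGANTCA. Motifs were allowed to overlap each other. Of all 32851 mouse promoter windows of this length, 29.8% held a GATA motif, 49.5% a CACCC-type motif, 72.3% an E-box and 7.81% the NF-E2 motif. These matches describe the letters of the windows and not the binding of any factor.

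Of the 9 measured factors, 6 were at least 2-fold lower in the Terc-/- pool, 0 were at least 2-fold higher and 3 lay within 2-fold. Klf1, Sox6, Gata1, Gfi1b, Tal1 and Bcl11a made up the lower group, and Lmo2, Ldb1 and Nfe2 the group within 2-fold. Over all 9953 detected genes, 8.81% were at least 2-fold lower and 6.87% at least 2-fold higher, against 66.7% of the measured factors lower. The median log2 difference of the 9 factors, Terc-/- minus Terc+/+, was -2.08, and that of all detected genes was 0.01. Fewer red-cell precursors and less factor RNA in each precursor cannot be told apart in RNA from a whole tissue.

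**Figure D1:**
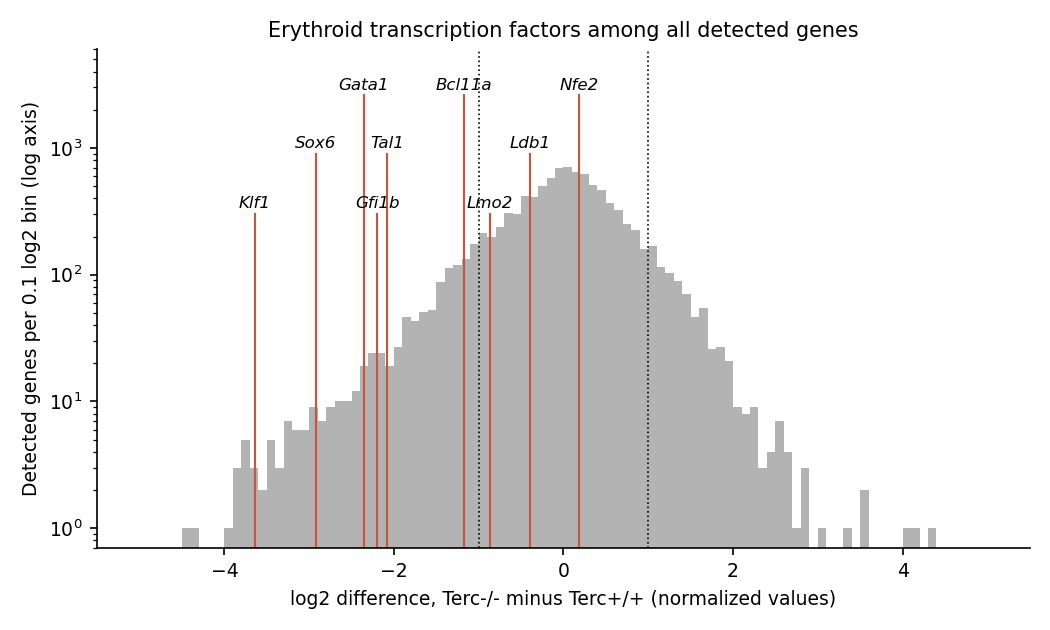
The histogram counts detected genes by their normalized log2 difference, Terc-/- minus Terc+/+, in bins of 0.1 on a log count axis, with a red line at each of the 9 measured factors and dotted lines at 2-fold. Klf1 lies at -3.64 in the sparse left tail, and Nfe2, at 0.18, lies near the centre.

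Klf1, the activator of globin and red-cell membrane genes, showed the largest difference. Its probe read a raw intensity of 4414 in Terc+/+ and 478 in Terc-/-, with a detection p-value of 0 on both arrays, meaning that no negative control was brighter. After background correction and normalization the difference was -3.64 on the log2 scale, or 12.5-fold lower. Of the 9953 detected genes, 13 had a more negative difference than Klf1. Klf1 had a single probe, so no further probe bears on this value.

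Gata1, the factor after which the GATA motif is named, had a pair of probes. The brighter read 477 in Terc+/+ and 182 in Terc-/-, above background on both arrays, and differed by -2.35, or 5.11-fold lower. Its detection p-value in Terc-/- was 0.00107, or 1 of the 936 negative controls that the steps of these p-values imply. The dimmer probe read 154 and 136 and was above background in Terc+/+ only (detection p-values of 0.00748 and 0.201), so it gives no usable difference and the Gata1 value rests on the brighter probe. The mean of both probes was -1.57.

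Tal1, the basic helix-loop-helix partner of Gata1, read 1463 in Terc+/+ and 445 in Terc-/-. The difference was -2.08, or 4.22-fold lower. The adaptor Lmo2 read 11105 in Terc+/+ and 6798 in Terc-/-, a difference of -0.87 or 1.83-fold lower, just inside the 2-fold rule. The scaffold Ldb1 read 5462 and 4752 and differed by -0.39, or 1.31-fold lower. Of these members of the complex, Gata1 and Tal1 were thus past 2-fold, and Lmo2 and Ldb1 were not. The DNA-binding partners Lyl1, Runx1, Tcf4 and Tcf12, given below, lay within 2-fold by their brightest probes, so the values do not divide by DNA binding. Each of Tal1, Lmo2 and Ldb1 had 1 probe, above background on both arrays.

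Gfi1b, a zinc-finger repressor needed for red cells and platelets, had a pair of probes that were above background on both arrays and differed alike. One probe read 2053 in Terc+/+ and 554 in Terc-/-, and the other read 1321 and 362. Their differences were -2.20 and -2.31, or 4.59-fold and 4.97-fold lower. This agreement is between oligonucleotides on the same arrays and not between mice.

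Nfe2, the p45 subunit of the NF-E2 activator, was the single measured factor with a higher value in Terc-/-. It read 7964 in Terc+/+ and 10076 in Terc-/-, and the normalized difference was 0.18. The value stayed above 0 in every processing alternative that was run, from 0.11 to 0.39, and it passed 2-fold in none of them.

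Bcl11a, which represses embryonic globin genes in mice, had 3 probes. The brightest, annotated to a single cDNA clone, read 1395 in Terc+/+ and 708 in Terc-/- and differed by -1.17, or 2.25-fold lower. A probe annotated to the RefSeq transcript read 688 and 523 and differed by -0.51. The third, also of that transcript, read 103 and 109 and was not above background on either array. Bcl11a was past 2-fold by its brightest probe only. The mean of its detected probes was -0.84 and that of all its probes -0.57, which leaves 5 of 9 factors past 2-fold.

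Sox6, an HMG-box factor that silences embryonic globin in mice, had 5 probes. The brightest, annotated to a cDNA clone, read 559 in Terc+/+ and 170 in Terc-/- and differed by -2.92, or 7.58-fold lower. Its detection p-value in Terc-/- was 0.00855, just under the threshold of 0.01. A second clone probe read 184 and 124 and was above background in Terc+/+ only, with a detection p-value of 0.565 in Terc-/-, so it gives no usable difference. The 3 probes annotated to the RefSeq transcript read between 122 and 150 on both arrays and were above background on neither. The Sox6 difference therefore rests on 1 clone probe, and the mean of all 5 was -1.01. Where a probe must reach a detection p-value under 0.001, a setting added after the values were seen, neither Sox6 nor Gata1 is above background in Terc-/-. The size of both differences depends on the background correction, and without it Sox6 differed by -1.76 and Gata1 by -1.42.

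**Figure D2:**
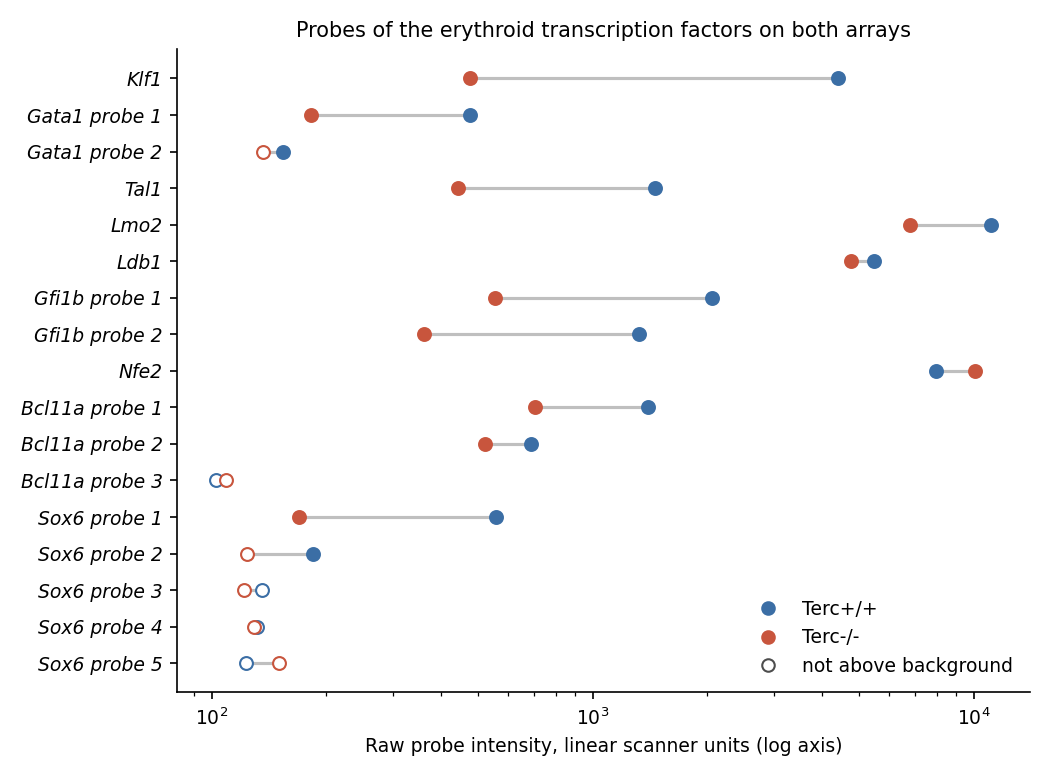
Each row is 1 probe of a factor, with raw intensity on a log axis for the Terc+/+ array (blue) and the Terc-/- array (red), and open circles mark values not above background. Of the 13 probes detected on at least 1 array, 12 read lower in Terc-/-, and the exception is Nfe2.

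Of the 9 factors, 8 stayed on the same side of the 2-fold rule under every processing alternative at that fold, and Bcl11a was the exception. Klf1 ranged from -3.72 to -3.31, Gfi1b from -2.29 to -1.96, Tal1 from -2.16 to -1.78 and Gata1 from -2.44 to -1.42. Sox6 had the widest range, from -3.00 to -1.01. Lmo2 stayed between -0.95 and -0.67, and Ldb1 between -0.42 and -0.16.

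**Figure D3:**
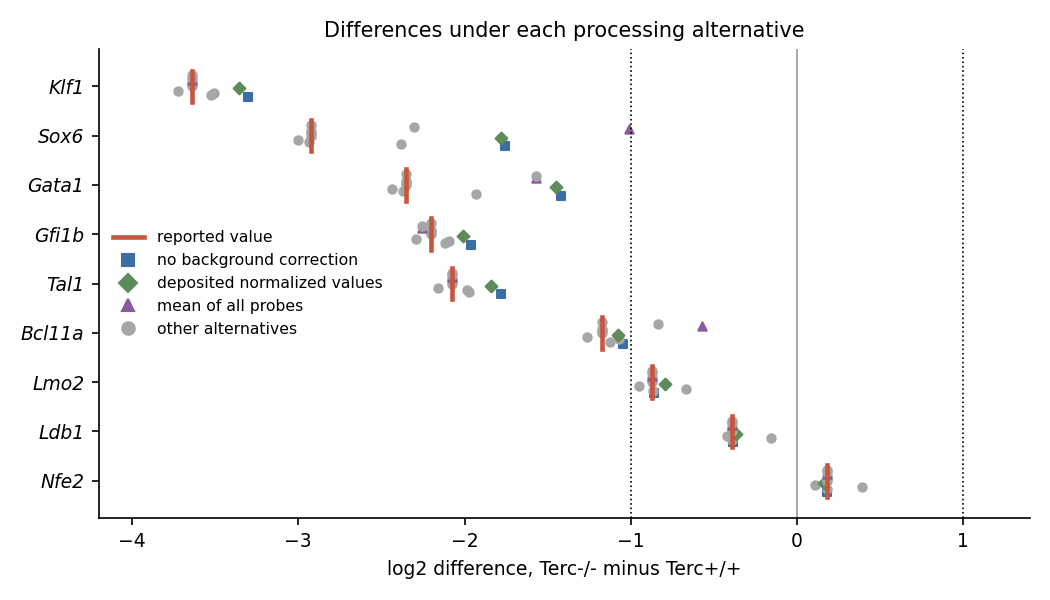
Points show the log2 difference of each factor, Terc-/- minus Terc+/+, under each processing alternative, and the red bar is the reported value. Sox6 and Gata1 spread most, and Bcl11a crosses the dotted 2-fold line when its probes are averaged.

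Most other proteins of the LDB1 complex lay within 2-fold, as did most detected genes (8.81% lower and 6.87% higher). Of 10 detected partners, 1 was past 2-fold downward and 1 upward. Their median difference was -0.13, which ran from -0.34 to 0.07 over the alternatives and so has no settled sign. Ssbp3, which protects Ldb1 from degradation, read 3053 in Terc+/+ and 1253 in Terc-/- and differed by -1.48, with a further probe at -0.95. Its relative Ssbp4 read 238 and 417 and differed by 1.21. Lyl1, the closest relative of Tal1, read 1084 and 1715 and was higher by 0.61, within 2-fold. The corepressor Cbfa2t3, also called Eto2, was at -0.58, and Runx1 at -0.42. Of the E proteins that pair with Tal1, Tcf4 was at -0.62 and Tcf12 at -0.26 by their brightest probes, within 2-fold. Tcf3 was at 0.62, but its brightest probe, at 143 and 174, was above background in Terc-/- only and gives no usable difference. Further probes of Tcf12 and Tcf3 were above background in Terc+/+ only.

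The detected subunits of the corepressor complexes through which Gfi1b, Bcl11a and Zfpm1 act were within 2-fold, as were 8392 of all 9953 detected genes. Hdac1 and Gatad2a had no named probe, and Rcor2 and Rcor3 were not detected. None of 13 detected subunits of NuRD and CoREST reached 2-fold in either direction (0 lower and 0 higher), and the median was -0.39, or -0.13 with Mbd2, detected in Terc+/+ only, at its bound. Kdm1a, the histone demethylase LSD1 that Gfi1b recruits, read 1365 in Terc+/+ and 1116 in Terc-/- and differed by -0.42. Its partner Rcor1 was at -0.13, Hdac2 at -0.39 and Chd4, the NuRD ATPase, at 0.18 by its brightest probe. A further Chd4 probe above background on both arrays read 287 in Terc+/+ and 250 in Terc-/- and differed by -0.36. Among the partners and relatives of Nfe2, 0 of 5 passed 2-fold. Mafg, a small Maf protein that pairs with Nfe2, was at 0.24 and the competing repressor Bach1 at 0.46. Mafk, another small Maf protein, read 181 in Terc+/+ and 154 in Terc-/- and was not above background in Terc-/-. A bound against background, computed on the background-corrected scale, placed it at least 1.30-fold lower.

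The relatives of the factors differed from one family to the next, with Gfi1 higher, Gata2, Bcl11b and most Sox genes lower in value, and the Krüppel-like and Sp genes within 2-fold. Gfi1, the relative of Gfi1b used by granulocytes, read 833 in Terc+/+ and 3114 in Terc-/-, a difference of 1.96 or 3.88-fold higher, where Gfi1b was 4.59-fold lower. Gata2, which precedes Gata1 in progenitors, read 1241 and 933 and differed by -0.54, against -2.35 for Gata1. Of the other Krüppel-like and Sp genes listed and detected, 0 were past 2-fold, where 8392 of all 9953 detected genes were within it. Klf2 was at 0.76, Klf7 at 0.61 and Sp1 at 0.40, against -3.64 for Klf1. Bcl11b, the T-cell relative of Bcl11a, read 228 in Terc+/+ and 139 in Terc-/-, where it was not above background, and its bound on the corrected scale was at least 2.10-fold lower. A further Bcl11b probe read 155 and 144 and gave no usable difference. Of the Sox genes, Sox4 was at -1.49 and Sox9 at -1.22, while Sox5, the usual partner of Sox6 in cartilage, was at -0.61. Further probes of Sox9 and Sox5 were above background in Terc+/+ only.

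Genes known to be activated by Klf1 and Gata1 were mostly lower. Over the 4 target lists together, without Tal1, 41 of 57 detected genes were at least 2-fold lower and 1 was at least 2-fold higher, with a median of -2.13 beside -2.08 for the factors. With the 6 target genes detected on 1 array only at their bounds, that median was -1.90. All earlier results of these pools were known when the lists were written, so these counts are no independent evidence of direction. In the haem and iron list, 14 of 18 genes were lower (median -1.77). Alas2, the first enzyme of haem synthesis in red cells and a Gata1 target, read 27704 in Terc+/+ and 3568 in Terc-/-, a difference of -3.18. Abcb10, a mitochondrial transporter induced by Gata1, was at -2.97, Uros at -2.82 and Fech, which inserts iron into haem, at -2.61. In the red-cell membrane list, 16 of 18 were lower (median -2.46), with Ermap at -3.75, Kel at -3.73, Dmtn at -3.66 and Icam4, a Klf1 target, at -3.27. Further probes of Ermap, Abcb10 and Fech were above background in Terc+/+ only. Of the rest of the membrane list, 1 gene lay within 2-fold and 1 was higher. The higher gene was Slc2a1, a glucose transporter of many cells, which read 573 and 1540 and was 2.93-fold higher.

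In the list of other erythroid targets, which also holds Tal1, 11 of 18 were lower (median -1.42). Trim10 was at -3.71, Hemgn, a nuclear protein of red-cell precursors, at -3.42, and Prdx2, an abundant red-cell peroxidase, at -2.30. The globin probes did not move together. Hba-a1 read 36606 in Terc+/+ and 50061 in Terc-/- and differed by 0.35, and Hbb-bs and Hbb-bt were at 0.09 and 0.41 by their brightest probes. Those values do not hold over all probes of these genes. The 6 probes of Hbb-bs ran from -0.58 to 0.60. Of the 4 probes of Hbb-bt, one read 15363 in Terc+/+ and 8044 in Terc-/-, a difference of -1.11, and the others ran from -0.34 to 0.41. The probe named Hbb-b2 read 1548 and 243 and differed by -3.48. The globin median, 0.22 by the brightest probes, was -0.02 with probes averaged, so it has no settled sign. The probes of Hbb-bs read between 31525 and 54575 over both arrays, and the adult globin genes are near-identical copies whose probes can share signal. The dimmest detected globin probes, that of Hbb-b2 and the Hbb-bt probe at 15363, had the largest falls. Whether probes as bright as the others understate a difference was not tested, so their values do not show that adult globin RNA was unchanged. The embryonic globins Hba-x, Hbb-bh1 and Hbb-y, which Bcl11a and Sox6 help to keep silent, were above background on neither array.

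Other regulators of red-cell formation were split. Of 16 detected, 5 were at least 2-fold lower and 0 higher, with a median of -0.56. Epor, the erythropoietin receptor and a Gata1 target, read 877 in Terc+/+ and 255 in Terc-/- and differed by -2.42, and Trib2, a pseudokinase, differed by -1.70. E2f2, which times the last divisions of erythroblasts, was at -1.03 and Tcf7l2 at -1.04, both by their brightest probes and just past 2-fold. A further E2f2 probe read 6195 in Terc+/+ and 3859 in Terc-/- and lay inside 2-fold at -0.88, and the remaining probes of E2f2 and Tcf7l2 were above background in Terc+/+ only. Id2, an inhibitor of basic helix-loop-helix proteins, was at 0.99, with further probes at 1.22 and 1.64.

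Several of the factors are also used by other cells of the tibia, and the markers of those cells are given here. All 11 detected red-cell markers were at least 2-fold lower (median -3.20). These genes also stand in the target lists or the list of other regulators above, so their count repeats those values. The summed raw intensity of the 12 with a probe was 95739 in Terc+/+ and 17864 in Terc-/-. Sums below likewise cover every gene of a list with a probe, detected or not. Of 14 detected megakaryocyte genes, 10 were lower and 0 higher (median -1.27), with Gp6 at -1.71 and Treml1 at -1.59, and the 15 with a probe, Itgb3 undetected among them, summed to 70142 in Terc+/+ and 33258 in Terc-/-. Of 6 detected eosinophil genes, 5 were lower (median -2.29), with Epx at -2.26, and the 8 with a probe summed to 18446 in Terc+/+ and 4714 in Terc-/-, with Il5ra and Siglecf not detected. Mast-cell and basophil genes, where Gata1 is also used, had a median of -0.08, with 0 of 6 detected genes lower and Hdc, the histamine-forming enzyme, higher at 1.32. The 11 with a probe summed to 10420 and 21275, but Hdc alone read 5880 and 16590, and the other 10 summed to 4540 and 4685. The mast-cell genes Ms4a2, Cma1, Mcpt4, Tpsab1 and Tpsb2 were not detected. The part of each cell type in the differences of Gata1, Gfi1b and Tal1 was not tested.

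For Bcl11a, 10 of 12 detected B-cell genes were lower (median -1.83), and the 14 with a probe, Pax5 and Dntt undetected among them, summed to 11746 and 3856, with Vpreb3 at -3.11 and Cd79b at -1.99. Plasmacytoid dendritic-cell genes were lower in 4 of 9 (median -0.97), with Siglech at -1.71, and the 10 with a probe, Ccr9 undetected among them, summed to 18086 and 10378. A further Siglech probe was above background in Terc+/+ only. For Sox6, 5 of 10 detected cartilage genes were lower (median -1.15, or -1.03 with 3 genes at their bounds), with Col2a1 at -2.21. The 15 with a probe summed to 17759 and 8968, and Matn1, Matn3, Col9a3, Col11a1 and Col11a2 were not detected. Of the 10 detected bone genes, 9 were lower, as given above. For Tal1 and Lmo2, 0 of 14 endothelial genes passed 2-fold in either direction (median -0.27), and the 16 with a probe, Kdr and Flt4 undetected among them, summed to 12864 and 11114. Among 8 detected progenitor genes 1 was lower, Slamf1 at -1.92, and the 12 with a probe summed to 4807 and 4639, with Erg, Hlf, Hoxa9 and Mecom not detected. Neutrophil genes were higher in 8 of 17 (median 0.96), with sums of 300483 in Terc+/+ and 478939 in Terc-/-. The part of these cells in the values of Bcl11a, Sox6, Lmo2 and Nfe2 was not tested.

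Transcription factors of other marrow lineages gave a comparison on the same arrays. Among 13 detected myeloid factors the median was 0.37, and 4 were at least 2-fold higher while 0 were lower. Gfi1 was at 1.96, Cebpb at 1.72, Cebpe, needed for late granulocytes, at 1.54, and Spi1, which opposes Gata1 by direct binding, read 370 in Terc+/+ and 778 in Terc-/- and was at 1.32. Among 10 detected B-cell factors the median was -1.10, or -0.55 without background correction, and 5 passed 2-fold downward and 0 upward. Pou2af1 was at -2.53, Irf4 at -1.80 and Spib, which read 278 in Terc+/+ and 161 in Terc-/-, where it was not above background, had a bound on the corrected scale of at least 2.96-fold lower. The differences between these groups of factors were not tested, since there was 1 array per genotype.

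**Figure D4:**
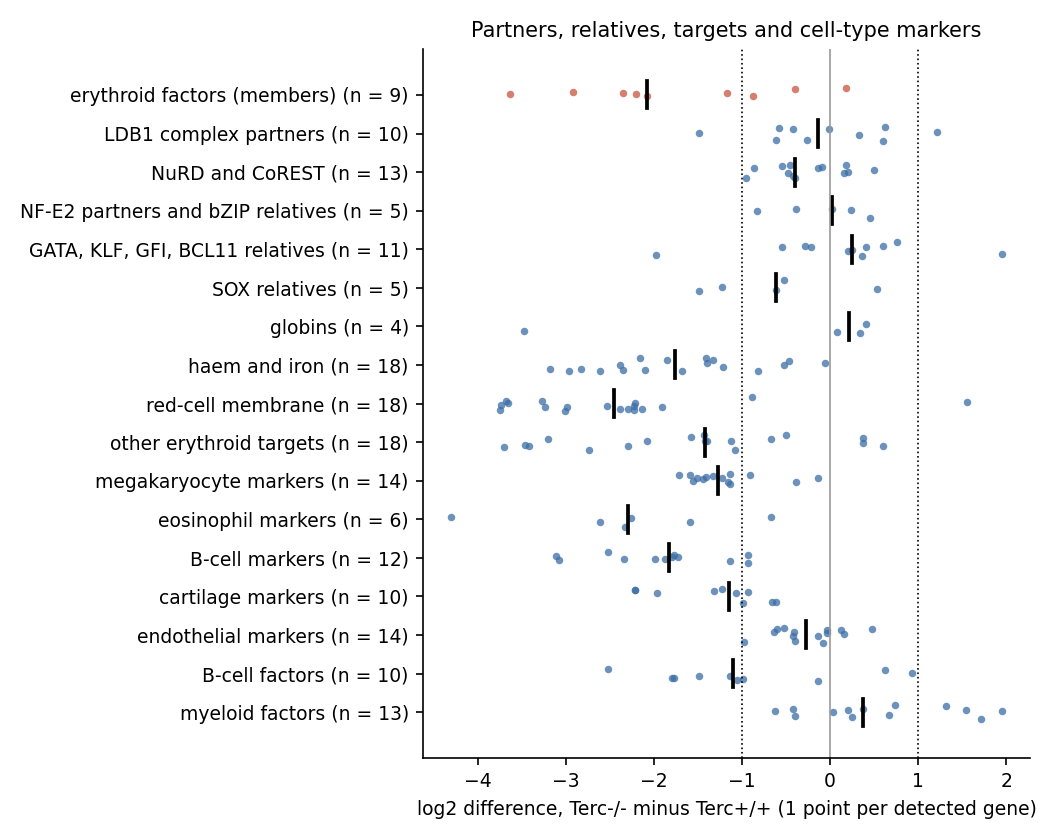
Each point is the log2 difference of 1 detected gene, Terc-/- minus Terc+/+, grouped by list, with a black bar at the list median and dotted lines at 2-fold. The factors (red, median -2.08) lie near the haem (-1.77) and membrane (-2.46) targets, and likewise near the eosinophil (-2.29) and B-cell (-1.83) markers. Bone markers, not drawn, had a median of -1.76. The LDB1, NuRD and CoREST partners lie near 0 and the myeloid factors lie to the right of it.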

How the data were processed

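Gene expression was measured on 1 array per genotype, each with RNA pooled from 3 mice. The authors deposited a non-normalized table which, per the file headers, gives the 45281 probes a linear signal intensity and a p-value of detection. They also deposited normalized intensities, quantile-like from their values, with no method stated. The software is not given in the sources used here. The intensities had no value below 88.7, so background had not been subtracted. Detected probes numbered 16640 in Terc+/+ and 15363 in Terc-/-, at median raw intensities of 127 and 138.

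The detection p-values served to estimate background, which normexp removed (limma 3.58.1, R 4.3.3, offset 16), followed by quantile normalization and log2, and the script was tested on simulated data. A probe was detected at a detection p under 0.01. The platform's annotation named 1 gene for 34885 probes, several for 18 and none for 10378, and 34807 were found by Entrez identifier in GRCm38.p6. The brightest probe stood for a gene. A gene detected on 1 array only was counted by its bound, taken on the other array against its own value or the dimmest detected probe, whichever was higher, on the background-corrected scale, where folds near background exceed raw ratios. A fold of 2 was a rule of size.

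The 10 members and the 23 gene lists were chosen with earlier results of these data known. All members were named. Other names were drawn from the 6 genes of each list with the largest differences, genes past 2-fold against their list and genes of a partner complex, and not every such gene is named. Some undetected genes are named as such. Alternatives were no background correction, an offset of 50, a common median, cyclic loess, the deposited values, other detection filters, averaged probes and folds of 1.5 and 3.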

Additional observations from a re-analysis of the deposited data

How the results depend on the processing

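No p-value, replicate error or sample left out could be had, because each genotype had 1 array, and no paired analysis was possible because there was 1 sample per group. The count of factors at least 2-fold lower was 6 of 9 in every alternative at 2-fold other than averaging probes, which gave 5 with all probes and 5 with detected probes. It was 7 at 1.5-fold and 5 at 3-fold, and the count of factors higher was 0 throughout. The median of the factors, -2.08 as reported, was -1.42 without background correction, -1.45 in the deposited normalized values and -1.01 with the mean of all probes. The median of the target genes was -1.54 without background correction. Over all genes, 487 were lower and 355 higher without background correction, 506 and 362 in the deposited values, 1691 and 1689 at 1.5-fold, and 305 and 175 at 3-fold, beside 877 and 684 as reported. Averaging all probes gave 579 lower, and a detection p under 0.001, chosen after seeing the data, gave 388 higher. Target genes higher numbered 2 at 1.5-fold and 0 at 3-fold, beside 1. For the shifts that remain, the cause was not tested. A value was taken to have moved where it differed by over 1.5-fold. By that measure 9 of 99 single-factor values moved, all for Gata1, Sox6 or Bcl11a, and 3 of 253 list medians. No value past 2-fold changed sign. Dim probes are limited by background: Gata1 and Sox6 lay close to it in Terc-/-.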

Other observations

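Target genes with more than 1 probe above background on both arrays offer a view of how far single oligonucleotides can be trusted. Of 18 such genes, 16 had all these probes on the same side of 0 and 2 did not, namely Hbb-bs and Hbb-bt. Slc25a37 and Sptb, also chosen after their values were seen, had a further probe above background in Terc-/- only. For Slc25a37, the mitochondrial iron importer mitoferrin-1, the probe of the RefSeq transcript read 9977 in Terc+/+ and 2260 in Terc-/-, a difference of -2.35. A probe of a cDNA clone read 109 in Terc+/+, not above background, and 225 in Terc-/-, at least 2.44-fold higher on the background-corrected scale. Sptb, the red-cell spectrin beta chain, had RefSeq probes at -3.01 and -0.68, and its clone probe read 148, not above background, and 184. Sox6 was the reverse case, with clone probes detected in Terc+/+ and RefSeq probes not above background. Which transcripts these probes read was not tested.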
